A study of Homo sapiens and Mus musculus with 4 samples.

Results

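The DNA replication machinery was taken as 41 listed genes that license replication origins, unwind DNA, prime and extend new strands, and join the pieces. All 41 symbols were found once among the 32738 human genes and once, under the same symbol, among the 27998 mouse genes, out of 60736 genes in all. The list is one of names, and it was chosen with earlier results of these data known. Messenger RNA had been measured by bulk RNA sequencing (TruSeq Stranded mRNA) in 4 established lymphocyte lines, with 1 library per line and no treatment. The human lines both come from T-cell leukaemias: Jurkat is of CD4 type, and TALL104 is of CD8 type and was kept in interleukin-2. The mouse lines are EL4, from a T-cell lymphoma, and the B-cell hybridoma IVA12. The paper describes TALL104 cells as smaller than those of the other lines, and as slow-growing and harder to culture, with limited viability. Each line was grown in its own medium, so line, medium, culture state and library cannot be told apart. With 1 library per line no test was possible.

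Replication begins at origins bound by the origin recognition complex (ORC1 to ORC6), where CDC6 and CDT1 load the ring of MCM2 to MCM7. Geminin (GMNN) binds CDT1 and keeps origins from being used again in the same cycle. In S phase, CDC45 and the GINS complex (GINS1 to GINS4) join the MCM ring to form the active helicase, and MCM10 helps to start it. DNA polymerase alpha with its primase (POLA1, POLA2, PRIM1 and PRIM2) lays down primers, and polymerases delta and epsilon extend them. PCNA is the sliding clamp that holds polymerases on DNA, and RFC1 to RFC5 load it. RPA1 to RPA3 coat single-stranded DNA, FEN1 trims flaps on the lagging strand and LIG1 seals the nicks. Transcription of many of these genes is known to be driven by E2F factors near the start of S phase, so the transcripts are used as signs of cell division in lymphocytes.

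The promoters of the listed human genes were searched for short words, to describe what the genes share beyond their function. RefSeq windows of 300 bases (GRCh38.p14, 250 before to 50 after the start) were held for 35 of the 41 human genes. MCM4, MCM5, GINS4, POLD3, RPA2 and RPA3 were not matched. Some of the windows are printed here as 140 bases on the strand of the gene, 5′ to 3′, from 110 before to 30 after the start. Capitals mark an E2F-type word (TTTCCCGC, TTTCGCGC, TTTGCCGC or TTTGGCGC) or CCAAT, the word of the NF-Y factor, on either strand. The first 6 are from genes that were much higher in Jurkat than in TALL104 and hold an E2F-type word:
MCM6, chr2:135876414-135876553, minus strand: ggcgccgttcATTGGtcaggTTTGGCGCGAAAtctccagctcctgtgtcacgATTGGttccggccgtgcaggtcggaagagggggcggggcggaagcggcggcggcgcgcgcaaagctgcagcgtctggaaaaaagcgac
MCM7, chr7:100101368-100101507, minus strand: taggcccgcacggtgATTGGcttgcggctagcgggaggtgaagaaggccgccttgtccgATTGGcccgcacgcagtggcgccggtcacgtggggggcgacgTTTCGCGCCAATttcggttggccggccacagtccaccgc
CDC6, chr17:40287769-40287908, plus strand: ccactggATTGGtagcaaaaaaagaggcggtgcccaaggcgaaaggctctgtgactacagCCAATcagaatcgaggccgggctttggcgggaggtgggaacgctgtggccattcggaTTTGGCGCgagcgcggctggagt
GINS1, chr20:25407563-25407702, plus strand: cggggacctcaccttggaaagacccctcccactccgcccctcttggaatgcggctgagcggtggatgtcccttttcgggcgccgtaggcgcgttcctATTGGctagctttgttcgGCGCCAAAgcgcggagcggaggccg
RFC3, chr13:33818039-33818178, plus strand: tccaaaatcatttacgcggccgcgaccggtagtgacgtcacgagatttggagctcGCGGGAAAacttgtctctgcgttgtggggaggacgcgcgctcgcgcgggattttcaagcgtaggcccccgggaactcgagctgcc
POLE2, chr14:49688185-49688324, minus strand: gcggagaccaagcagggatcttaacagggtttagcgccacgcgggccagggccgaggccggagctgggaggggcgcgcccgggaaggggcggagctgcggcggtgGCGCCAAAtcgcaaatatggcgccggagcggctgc

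Among the other 4 windows, those of ORC3 and MCM10 show that the word and the ratio did not always go together. ORC3 holds an E2F-type word and was less than 2-fold apart between the lines, and MCM10 holds none of the 4 words and was far apart. ORC2 and RPA1 hold none and were close:
ORC3, chr6:87590025-87590164, plus strand: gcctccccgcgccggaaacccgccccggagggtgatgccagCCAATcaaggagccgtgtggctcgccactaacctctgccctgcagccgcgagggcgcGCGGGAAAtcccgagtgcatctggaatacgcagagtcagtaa
MCM10, chr10:13161448-13161587, plus strand: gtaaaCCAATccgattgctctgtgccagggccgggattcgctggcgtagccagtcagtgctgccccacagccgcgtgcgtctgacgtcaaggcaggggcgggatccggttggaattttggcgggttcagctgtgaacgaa
ORC2, chr2:200963631-200963770, minus strand: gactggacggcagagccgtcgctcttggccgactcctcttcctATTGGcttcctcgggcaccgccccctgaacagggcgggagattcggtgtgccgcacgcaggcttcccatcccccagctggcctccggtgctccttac
RPA1, chr17:1829895-1830034, plus strand: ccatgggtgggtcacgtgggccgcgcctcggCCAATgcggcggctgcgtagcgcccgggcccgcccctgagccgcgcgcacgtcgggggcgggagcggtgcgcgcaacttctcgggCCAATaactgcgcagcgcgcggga

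An E2F-type word stood in the window of 18 of the 35 listed genes, or 51.4%. The same words stood in a window of 3.99% of all 27305 genes of the table, in 3.31% of its 35116 single windows, and in 6.60% of the 9288 other human genes with at least 1 FPKM in either human line. In 16 of the 18 genes a word lay between 100 bases before and 50 bases after the start. The word was commonest in the helicase group, at 7 of the 9 genes in the table (MCM2, MCM3, MCM6, MCM7, GINS1, GINS2 and GINS3). It stood in 4 of 9 licensing genes (ORC3, CDC6, CDT1 and GMNN), 4 of 8 primase and polymerase genes (POLA1, POLA2, POLE and POLE2), 2 of 6 clamp and loader genes (PCNA and RFC3) and 1 of 3 of the remaining group (LIG1). CCAAT stood in 21 of the 35 genes, or 60%, against 39.7% of all genes, 34.6% of single windows and 43.0% of the other expressed genes. TTTGAA, the word of the cell cycle homology region (CHR) known from mitotic promoters, stood in 0 of 35, against 18.2% of all genes, 15.2% of single windows and 13.6% of the other expressed genes. Shares of single windows count windows, whereas the other shares count genes, some with several windows. For genes with 1 window, the E2F-type share was 53.6% of 28 listed genes, against 5.49% of 6650 other expressed genes. For CCAAT it was 60.7% against 38.1%, and for TTTGAA 0% against 9.64%. A match is a match of letters and not a measured binding site.

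**Figure D1:**
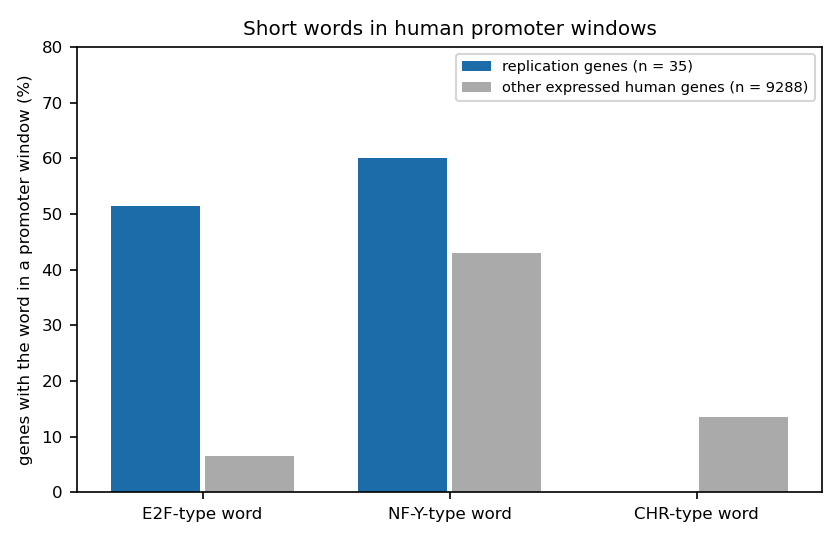
Share of human genes with a word in a RefSeq promoter window of 300 bases, in percent, for the 35 listed replication genes in the table (blue) and the 9288 other human genes with at least 1 FPKM in either human line (grey). The NF-Y-type word is CCAAT. The E2F-type bar is 51.4% against 6.60%, the NF-Y-type bar 60% against 43.0%, and the CHR-type bar 0% against 13.6%.

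The values are FPKM, fragments per gene scaled by gene length and by library total. The counted units are called reads here. The libraries were sequenced from both ends, and whether a pair was counted once is not given in the sources used here. If each end was counted, the counting intervals are too narrow. The totals recovered from the steps between values lay between 25286728 and 34783047 reads. Intervals given with values and folds are 95% counting intervals. They hold the error of counting reads alone, not that of amplified molecules or of repeated cultures. A gene was counted as higher in a line when the ratio of FPKM + 1 was past 1.5-fold. The T-cell markers CD3D, CD3E, CD3G, CD247 and LCK lay between 33.4 and 400.1 FPKM in Jurkat and TALL104, and CD2 was at 86.0 and 15.6 FPKM. In EL4 all 6 T-cell markers were higher than in IVA12, with Cd3e at 63.6 and 0.0275 FPKM. IVA12 had Jchain at 1289, Cd79b at 163 and Ms4a1 at 46.5 FPKM. The B-cell markers Cd79a at 0.0543 and Pax5 at 0.156 FPKM were near 0 in it. CD79A, also a B-cell marker, was at 16.5 FPKM in Jurkat and 24.6 FPKM in TALL104, and CD79B was at 4.80 FPKM in TALL104.

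All 41 listed genes reached 1 FPKM in Jurkat, EL4 and IVA12, and 40 did in TALL104, where GINS3 was at 0.954 FPKM. Together the listed genes held 0.677% of the human FPKM in Jurkat and 0.178% in TALL104, and 0.640% of the mouse FPKM in EL4 and 0.571% in IVA12. Their median level was 30.9 FPKM in Jurkat against 6.33 in TALL104, and in the mouse lines it was 32.4 FPKM for EL4 and 39.9 for IVA12. Detected genes of the same species had medians of 8.64, 8.62, 10.7 and 10.2 FPKM in the same order. In Jurkat, 40 of the 41 lay above it, all but ORC4, and 38 did in each mouse line. In TALL104, 12 did: ORC2, ORC3, MCM3, MCM5, MCM6, MCM7, PCNA, RFC1, RFC2, FEN1, RPA1 and RPA2. TALL104 thus stood apart from the other 3 libraries.

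PCNA was the highest listed gene in Jurkat at 223 FPKM (218.8 to 227), in TALL104 at 94.7 FPKM (91.7 to 97.7) and in EL4 at 236 FPKM (233 to 239.9). By level it was gene number 94 of the human genes in Jurkat, 263 in TALL104 and 167 of the mouse genes in EL4. In IVA12 the highest was Mcm3 at 129 FPKM (126 to 131), followed by Mcm6 at 125 FPKM (123 to 127). Pcna came next at 122 FPKM (119 to 125). The interval of Mcm6 overlaps those of Mcm3 and Pcna, so its place is not resolved. The lowest was ORC4 in Jurkat at 5.54 FPKM (5.28 to 5.80) and GINS3 in TALL104 (0.801 to 1.13). In the mouse lines it was Prim2 in EL4 at 8.37 FPKM (7.97 to 8.79) and Gins2 in IVA12 at 4.84 FPKM (4.42 to 5.28). The interval of GINS3 in TALL104 overlaps that of GINS4 (0.997 to 1.34), so the lowest gene is not resolved there.

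The first comparison set the human lines side by side. Of the 41 genes, 37 were past 1.5-fold higher in Jurkat, 0 were past it in TALL104, and the 4 between were ORC2, ORC4, RPA1 and RPA2. Among the 12214 human genes with at least 1 FPKM in either line, 34.2% were past 1.5-fold higher in Jurkat and 28.4% in TALL104. All 41 log2 ratios of Jurkat over TALL104 were above 0, with a median of 2.24, a middle range from 1.34 to 2.66 and extremes of 0.05 and 3.89. The median over the 12214 genes was 0.10. At 2-fold, 33 of the 41 were higher in Jurkat and 0 in TALL104, against 22.5% and 18.6% of the 12214 genes.

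Fewer dividing cells and less RNA of these genes per dividing cell cannot be told apart in bulk RNA. Mitochondrially encoded genes held 14.9% of the human FPKM in Jurkat and 20.6% in TALL104. With these left out and the totals set equal, the count was 37 again and the median log2 ratio 2.14. The counting interval of the fold excluded 1 for 40 of the 41 genes, all but ORC2, and for 91.5% of the 12214 genes, so at this depth counting error limited few genes.

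**Figure D2:**
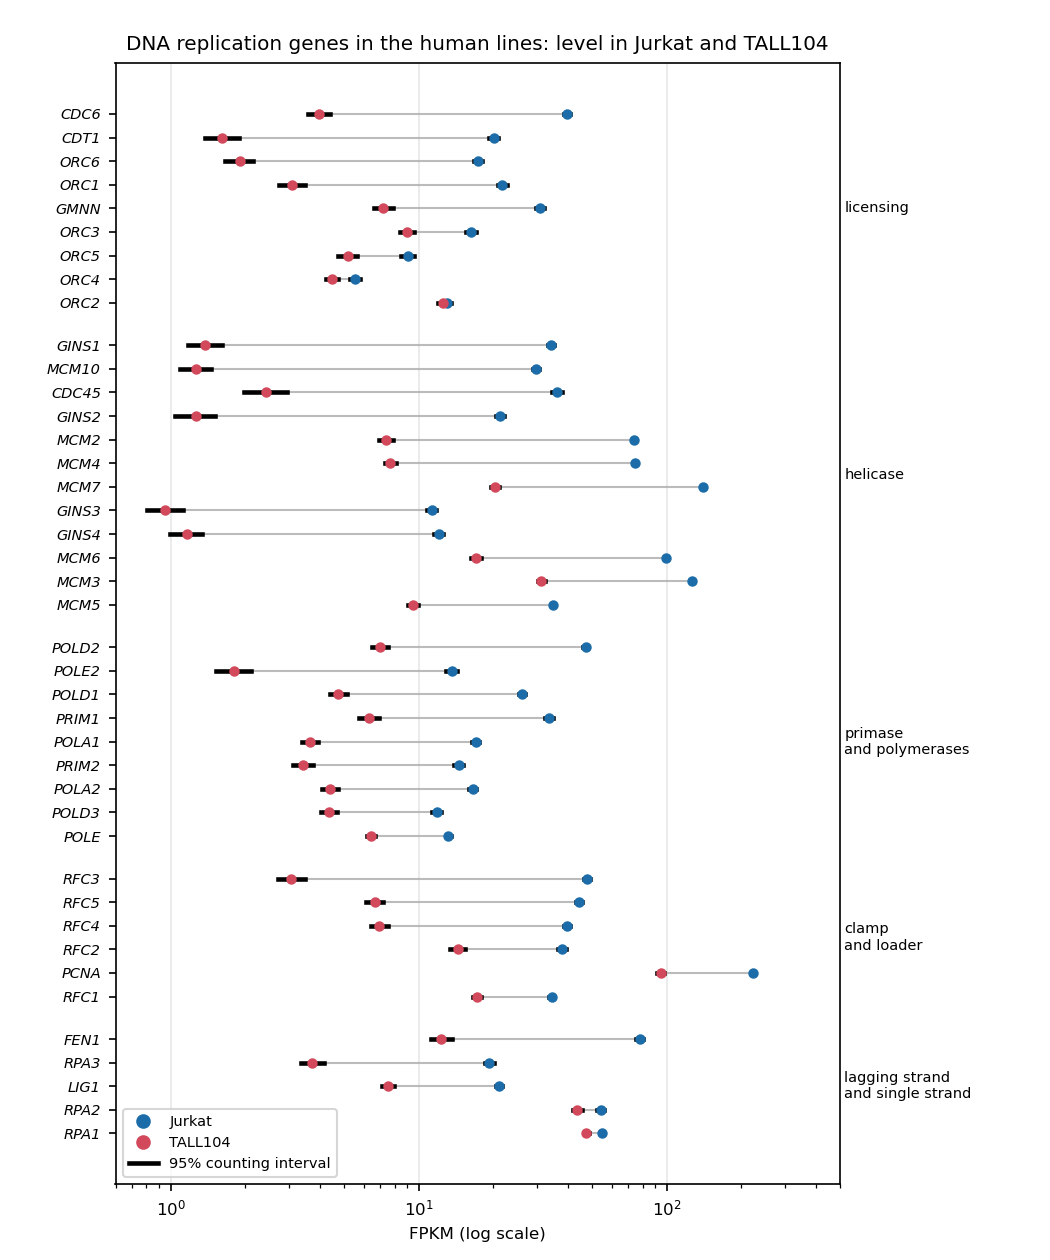
Level of each of the 41 replication genes in the 2 human libraries, in FPKM on a log axis, grouped by role and ordered within a role by ratio. Points are single libraries (blue Jurkat, red TALL104) and black bars are 95% counting intervals. Every blue point lies to the right of its red point, with GINS1 and MCM10 farthest apart and ORC2, RPA1 and RPA2 close together.

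Licensing genes fell into a far and a near set. CDC6, which loads the MCM ring with ORC, had 39.6 FPKM in Jurkat and 3.98 in TALL104, a fold of 9.93 (8.95 to 11.1) and the highest log2 ratio of the 9 at 3.03 (hg19 chromosome 17, 38444131 to 38460909, plus strand). Its partner CDT1 had 20.1 and 1.62 FPKM, a log2 ratio of 3.01 and, by fold alone, a higher value of 12.4 (10.5 to 14.7), with intervals that overlap. ORC6 had 17.4 and 1.90 FPKM. ORC1, the subunit of the complex whose amount is known to change over the cell cycle, had 21.8 and 3.10 FPKM, a fold of 7.04 (6.21 to 7.998). GMNN, the inhibitor of CDT1, had 30.9 and 7.21 FPKM, a fold of 4.29 (3.90 to 4.72).

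The other ORC subunits differed less between the lines, and of these ORC2 and ORC4 were within 1.5-fold. ORC2 had 13.0 FPKM (12.5 to 13.5) in Jurkat and 12.5 (12.0 to 13.1) in TALL104 (chromosome 2, 201773700 to 201828403, minus strand), a fold of 1.04 (0.979 to 1.10), so the lines were not distinguishable there. ORC4 had 5.54 and 4.48 FPKM, a fold of 1.24 (1.15 to 1.33). ORC3 had 16.3 and 9.01 FPKM, and ORC5 had 9.02 and 5.17 FPKM, folds of 1.81 and 1.74. Of the 9 licensing genes 7 were past 1.5-fold, with a median log2 ratio of 1.96, and of ORC1 to ORC6 4 were, with a median of 0.74.

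Helicase genes had the largest ratios. All 12 were past 1.5-fold higher in Jurkat, with a median log2 ratio of 2.93. GINS1 had 34.2 FPKM (33.3 to 35.2) in Jurkat and 1.38 (1.18 to 1.61) in TALL104 (chromosome 20, 25371644 to 25433336, plus strand), a fold of 24.8 (21.2 to 29.2) and the largest of the list on either scale. MCM10 had 29.8 and 1.27 FPKM (chromosome 10, 13203558 to 13253110, plus strand), a fold of 23.5 (20.4 to 27.2). Their intervals overlap, so the order of these genes is not resolved. GINS2 had 21.3 and 1.26 FPKM, a fold of 16.8 (14.0 to 20.4), and CDC45 had 36.3 and 2.43 FPKM, a fold of 14.9 (12.2 to 18.5). Their intervals overlap too, and on log2 of FPKM + 1 CDC45 was the higher, at 3.44 against 3.30. GINS3 had 11.3 and 0.954 FPKM, and GINS4 had 12.1 and 1.16 FPKM. All 4 GINS subunits were thus between 0.954 and 1.38 FPKM in TALL104.

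The MCM ring subunits were more abundant than these partners in both lines, except that MCM5 was just under CDC45 in Jurkat. MCM2 had 74.2 FPKM in Jurkat and 7.40 in TALL104, a fold of 10.02 (9.40 to 10.7), and MCM4 had 74.8 and 7.68 FPKM, a fold of 9.74 (9.23 to 10.3). MCM7 had 141 and 20.3 FPKM, MCM6 99.5 and 17.1 FPKM, and MCM3 127 and 31.2 FPKM. MCM5 had 34.8 FPKM (34.1 to 35.5) and 9.49 FPKM (9.07 to 9.91), a fold of 3.67 (3.49 to 3.85) and the lowest ratio of the 12 (chromosome 22, 35796127 to 35821424, plus strand). Over MCM2 to MCM7 the median log2 ratio was 2.61.

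All 9 primase and polymerase genes were past 1.5-fold higher in Jurkat, with a median log2 ratio of 1.95. POLD2, an accessory subunit of polymerase delta, had the highest log2 ratio at 2.59, with 47.1 FPKM (46.0 to 48.3) and 7.004 FPKM (6.504 to 7.53), a fold of 6.73 (6.23 to 7.28; chromosome 7, 44154230 to 44163957, minus strand). By fold alone POLE2, the second subunit of polymerase epsilon, was higher still, with 13.6 and 1.80 FPKM and a fold of 7.53 (6.37 to 8.97), and the intervals overlap. POLE, the catalytic subunit of polymerase epsilon, had the lowest ratio, with 13.2 FPKM (12.9 to 13.5) and 6.44 FPKM (6.21 to 6.67), a fold of 2.04 (1.96 to 2.13; chromosome 12, 133200339 to 133263962, minus strand). POLE and POLE2 were thus at nearly the same level in Jurkat and 3.57-fold apart in TALL104. The 4 genes of polymerase alpha and primase kept close together, with folds of 4.66 for POLA1, 3.77 for POLA2, 5.29 for PRIM1 and 4.24 for PRIM2. POLD1, the catalytic subunit of polymerase delta, had 26.2 and 4.74 FPKM, and POLD3 had 11.8 and 4.37 FPKM.

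All 6 clamp and loader genes were past 1.5-fold higher in Jurkat, with a median log2 ratio of 1.85. RFC3, a small subunit of the loader, had 47.8 FPKM (46.5 to 49.2) and 3.07 FPKM (2.70 to 3.47), a fold of 15.6 (13.7 to 17.8; chromosome 13, 34392206 to 34540695, plus strand). RFC1, the large subunit, had 34.4 FPKM (33.6 to 35.1) and 17.2 FPKM (16.6 to 17.8), a fold of 1.997 (1.92 to 2.08) and the lowest ratio of the group (chromosome 4, 39289076 to 39367995, minus strand). RFC2, RFC4 and RFC5 lay between, with folds of 2.64, 5.71 and 6.69. PCNA itself had a fold of 2.35 (2.27 to 2.44). The loader was thus even in Jurkat, where the 5 subunits lay between 34.4 and 47.8 FPKM, and uneven in TALL104, where they lay between 3.07 and 17.2 FPKM.

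Of the 5 lagging strand and single strand genes 3 were past 1.5-fold higher in Jurkat, with a median log2 ratio of 1.37. FEN1 had 77.8 FPKM (75.2 to 80.5) and 12.4 FPKM (11.2 to 13.6), a fold of 6.30 (5.70 to 6.98; chromosome 11, 61560383 to 61564710, plus strand). LIG1 had 21.0 and 7.52 FPKM, a fold of 2.80 (2.63 to 2.97). RPA1, the large subunit of the single-strand binding complex, had 54.9 FPKM (53.8 to 56.0) and 47.4 FPKM (46.3 to 48.5), a fold of 1.16 (1.12 to 1.19) and the lowest ratio of the group (chromosome 17, 1732996 to 1803376, plus strand). RPA2 had 54.3 and 43.7 FPKM, a fold of 1.24 (1.18 to 1.31). RPA3 had 19.2 and 3.73 FPKM, a fold of 5.16 (4.60 to 5.80), so the subunits of this complex differed between the lines by different folds.

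The 18 listed genes with an E2F-type word in a window of 300 bases had a median log2 ratio of 2.43. All 18 were past 1.5-fold higher in Jurkat. The 17 without one had a median of 2.24, and 14 were past it. Among the other expressed human genes, the median was 0.21 for the 613 with such a word, of which 38.5% were higher in Jurkat, and 0.13 for the 8675 without, of which 34.5% were. Listed genes thus had high ratios with and without the word.

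Genes that start close to a listed gene on the opposite strand mostly had smaller ratios. Within 1000 bases, 12 listed human genes had a protein-coding head-to-head partner with at least 1 FPKM in either line, the farthest at 255 bases. Of these partners 5 were past 1.5-fold higher in Jurkat and 0 in TALL104, beside 34.2% and 28.4% of all expressed human genes. Their median log2 ratio was 0.34, against 0.10 over all expressed genes and 2.52 for the 12 listed genes themselves. Each partner had a lower ratio than its listed gene, except LIPT2 beside POLD3, at 4.14 FPKM in Jurkat and 0.327 in TALL104. MCM2 and its partner TPRA1 start 143 bases apart, and TPRA1 had 5.17 FPKM in Jurkat and 7.996 in TALL104. MCM4 and PRKDC, a DNA repair kinase gene, start 7 bases apart, and PRKDC had 68.9 and 32.6 FPKM.

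The second comparison set the mouse lines side by side. Of the 41 genes 11 were past 1.5-fold higher in EL4, 10 in IVA12 and 20 in neither. Among the 10801 mouse genes with at least 1 FPKM in either line, 23.8% were past it in EL4 and 26.5% in IVA12, so the shares of the list, 26.8% and 24.4%, were near those of all genes. The median log2 ratio of EL4 over IVA12 was 0.11 for the list, with a middle range from -0.56 to 0.60, and -0.04 over the 10801 genes. At 2-fold, 4 were higher in EL4 and 1 in IVA12, against 15.3% and 16.4% of all genes. The counting interval excluded 1 for 39 of the 41, all but Rfc5 and Pola2, and for 88.9% of the 10801 genes.

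**Figure D3:**
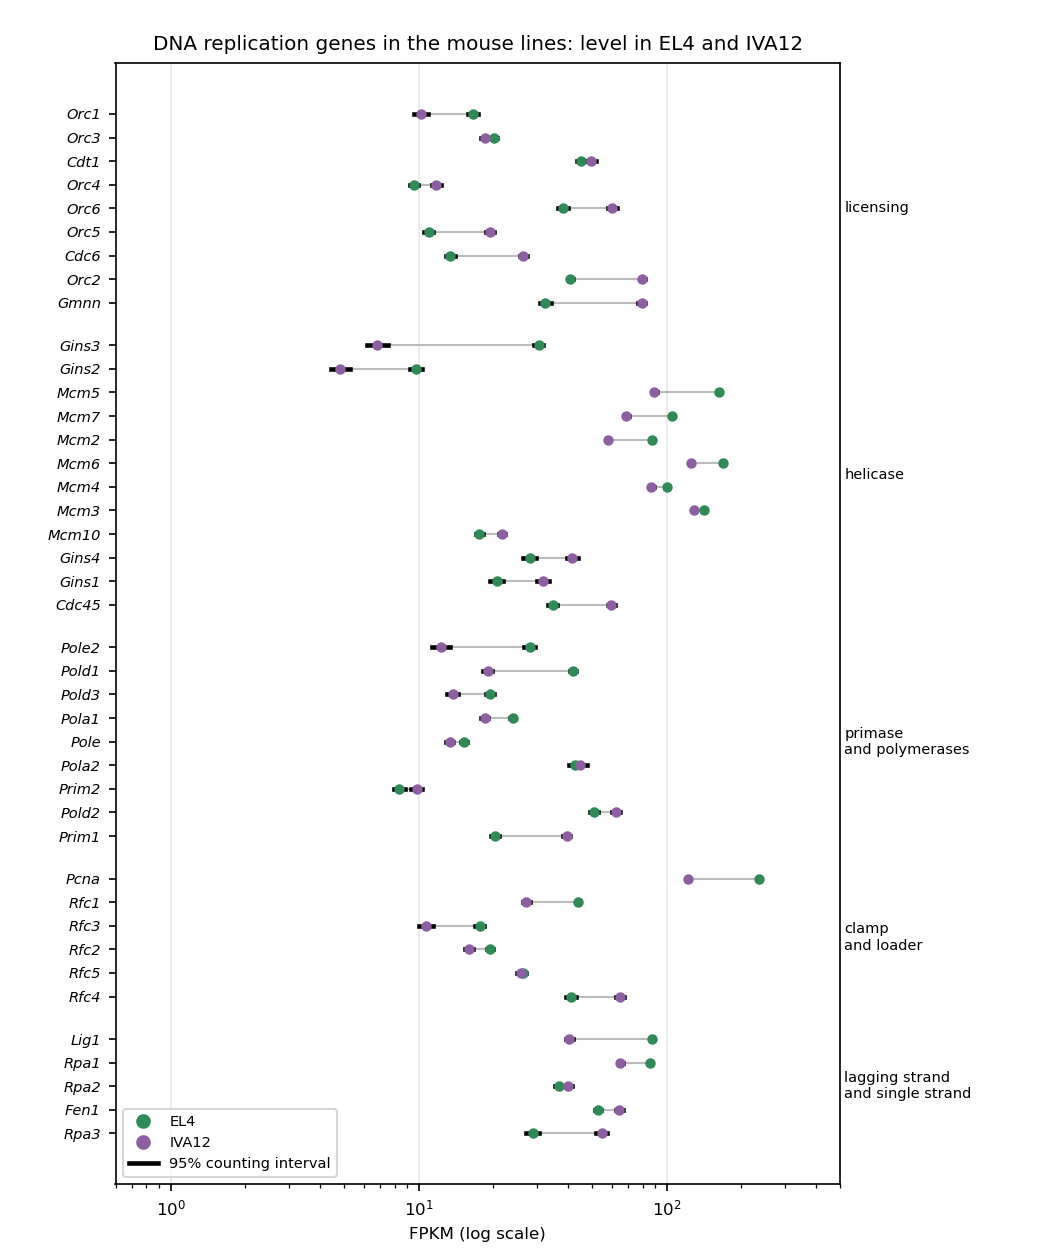
Level of each of the 41 replication genes in the 2 mouse libraries, in FPKM on a log axis, grouped by role and ordered within a role by ratio. Points are single libraries (green EL4, purple IVA12) and black bars are 95% counting intervals. The points change sides within every role, and Gins3 has the widest gap, at 30.5 FPKM in EL4 and 6.82 FPKM in IVA12.

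Most mouse licensing genes were higher in IVA12, with 5 of 9 past 1.5-fold there, 1 in EL4 and a median log2 ratio of -0.65. The shares were 55.6% in IVA12 and 11.1% in EL4, beside 26.5% and 23.8% of all expressed mouse genes. Gmnn had 32.4 FPKM (30.8 to 34.0) in EL4 and 79.2 FPKM (76.4 to 82.1) in IVA12, 2.45-fold higher in IVA12 (2.30 to 2.604), with the lowest log2 ratio of the list at -1.26 (mm10 chromosome 13, 24751845 to 24761923, minus strand). Orc2 had 41.0 and 79.7 FPKM, Orc5 10.98 and 19.4 FPKM, and Orc6 38.2 and 60.5 FPKM. Cdc6 had 13.4 and 26.5 FPKM, 1.97-fold higher in IVA12 (1.87 to 2.08). Orc1 was the exception, with 16.5 FPKM (15.8 to 17.3) in EL4 and 10.2 FPKM (9.55 to 10.9) in IVA12, a fold of 1.62 (1.496 to 1.76; chromosome 4, 108579423 to 108614833, plus strand). Cdt1 had 45.1 and 49.8 FPKM, Orc3 20.1 and 18.5 FPKM, and Orc4 9.58 and 11.8 FPKM.

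In the mouse helicase group 4 of 12 genes were higher in EL4 and 2 in IVA12. As shares these were 33.3% and 16.7%, beside 23.8% and 26.5% of all expressed mouse genes. The GINS subunits went in different directions. Gins3 had 30.5 FPKM (29.3 to 31.8) in EL4 and 6.82 FPKM (6.18 to 7.51) in IVA12, a fold of 4.47 (4.03 to 4.98) and the largest of the list (chromosome 8, 95633453 to 95645060, plus strand). Gins2 had 9.73 and 4.84 FPKM, a fold of 2.01 (1.81 to 2.24). Gins1 had 20.6 and 31.7 FPKM, 1.54-fold higher in IVA12 (1.41 to 1.67), and Gins4 had 28.0 and 41.7 FPKM.

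Cdc45 had 34.7 FPKM (33.4 to 36.1) in EL4 and 59.9 FPKM (57.9 to 61.9) in IVA12, 1.73-fold higher in IVA12 and the lowest log2 ratio of the group at -0.77 (chromosome 16, 18780447 to 18811987, minus strand). The 6 MCM ring genes were all higher in EL4 to some degree, and 2 were past 1.5-fold. Mcm5 had 162 and 89.3 FPKM, a fold of 1.82 (1.77 to 1.87), and Mcm7 had 105 and 68.8 FPKM, a fold of 1.53 (1.49 to 1.57). Mcm2 stood just under the threshold on FPKM + 1, with 87.2 and 57.8 FPKM. Mcm3 had 142 and 129 FPKM, Mcm4 101 and 86.8 FPKM, and Mcm6 168 and 125 FPKM. Mcm10, which was far apart between the human lines, had 17.6 and 21.7 FPKM here.

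Among the mouse primase and polymerase genes 2 of 9 were higher in EL4 and 1 in IVA12. As shares these were 22.2% and 11.1%, beside 23.8% and 26.5% of all expressed mouse genes. Pole2 had 28.0 FPKM (26.6 to 29.4) in EL4 and 12.3 FPKM (11.3 to 13.4) in IVA12, a fold of 2.27 (2.06 to 2.51; chromosome 12, 69201773 to 69228195, minus strand). Pold1 had 41.9 and 19.0 FPKM, a fold of 2.203 (2.10 to 2.31). Prim1 had 20.4 FPKM (19.6 to 21.2) in EL4 and 39.6 FPKM (38.4 to 40.9) in IVA12, 1.94-fold higher in IVA12 (1.85 to 2.05; chromosome 10, 128015168 to 128030037, plus strand). The primase partner Prim2 had 8.37 and 9.82 FPKM. Pola1, Pola2, Pold2, Pold3 and Pole were within 1.5-fold.

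Clamp and loader genes were past 1.5-fold in EL4 for 3 of 6 and in IVA12 for 1. As shares these were 50% and 16.7%, beside 23.8% and 26.5% of all expressed mouse genes. Pcna had 236 and 122 FPKM, a fold of 1.94 (1.89 to 1.99; chromosome 2, 132249162 to 132253314, minus strand). Rfc1 had 43.9 and 27.2 FPKM and Rfc3 17.6 and 10.7 FPKM, both higher in EL4. Rfc4 had 41.1 FPKM (39.3 to 42.9) in EL4 and 64.8 FPKM (62.3 to 67.4) in IVA12, 1.58-fold higher in IVA12 (1.49 to 1.67; chromosome 16, 23113943 to 23127737, minus strand). Rfc5 had 26.3 and 25.8 FPKM, a fold of 1.02 (0.972 to 1.07).

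In the lagging strand and single strand group 1 of 5 was higher in each line. The share was 20% each, beside 23.8% in EL4 and 26.5% in IVA12 of all expressed mouse genes. Lig1 had 87.2 FPKM (85.6 to 88.8) in EL4 and 40.6 FPKM (39.4 to 41.8) in IVA12, a fold of 2.15 (2.08 to 2.23; chromosome 7, 13277283 to 13311433, plus strand). Rpa3 had 28.9 FPKM (27.2 to 30.7) in EL4 and 54.8 FPKM (52.1 to 57.5) in IVA12, 1.89-fold higher in IVA12 (1.75 to 2.05; chromosome 6, 8255936 to 8259173, minus strand). Fen1 had 53.0 and 64.5 FPKM, Rpa1 85.6 and 65.1 FPKM, and Rpa2 36.8 and 39.9 FPKM.

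The ratios of the human pair and of the mouse pair were set against each other gene by gene, since no library is shared between them. Pearson's r across the 41 genes was 0.00 on log2 of FPKM + 1, so the order of genes in one pair did not carry over to the other. GINS1 and GMNN, for example, were past 1.5-fold higher in Jurkat and, as mouse genes, in IVA12, whereas GINS3, POLD1, POLE2 and RFC3 were past it in Jurkat and in EL4.

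The levels themselves were more alike between species than the ratios. Across the 41 genes, r was 0.70 between Jurkat and EL4, 0.62 between Jurkat and IVA12, 0.62 between TALL104 and EL4 and 0.55 between TALL104 and IVA12. Within a species it was 0.65 between Jurkat and TALL104 and 0.81 between EL4 and IVA12. These are descriptions over 41 genes that share a library and, within a species, gene lengths.

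**Figure D4:**
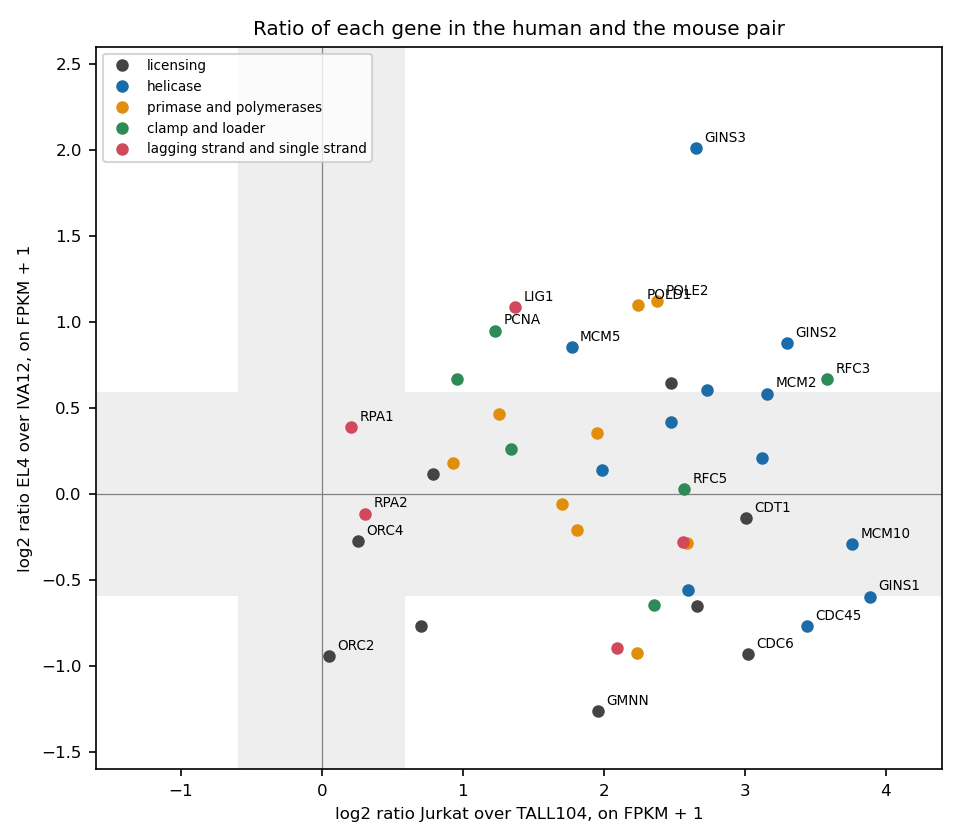
Log2 ratio of EL4 over IVA12 (vertical) against log2 ratio of Jurkat over TALL104 (horizontal), both on FPKM + 1, for the 41 replication genes coloured by role and with some named by human symbol. Grey bands mark ratios within 1.5-fold. All points lie to the right of 0 with a median of 2.24, and they spread about 0 vertically with a median of 0.11.

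FPKM is per length, so levels of subunits of a complex could be set side by side within a library, as far as the gene lengths used by the authors fit the transcripts present. The length recovered from the FPKM steps equalled the annotated exon length in human for 7 of 41 and in mouse for 32 of 41. The annotation used here is not the release of the authors, and a recovered length can lack a factor that it shares with the reads. The mismatch therefore does not measure how certain the levels are, and most human lengths could not be checked in this way. The ratio of the highest to the lowest level over MCM2 to MCM7 was 4.04 for Jurkat and 4.22 for TALL104, and 1.93 for EL4 and 2.22 for IVA12. MCM5 was lowest in Jurkat, and MCM2 in the other 3 libraries. In TALL104 the intervals of MCM2 (6.96 to 7.87) and MCM4 (7.30 to 8.08) overlap, so the lowest is not resolved there. For RFC1 to RFC5 it was 1.39 for Jurkat, 5.61 for TALL104, 2.49 for EL4 and 6.04 for IVA12. RFC3 was the highest loader subunit in Jurkat and the lowest in the other 3 libraries.

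The GINS levels spanned 3.03-fold in Jurkat against 1.45-fold in TALL104, and 3.13-fold in EL4 against 8.62-fold in IVA12. The narrow span in TALL104 rests on low values, between 0.954 and 1.38 FPKM. The ORC levels spanned 3.93-fold, 6.59-fold, 4.28-fold and 7.80-fold in the same order of libraries. ORC2 was the highest ORC subunit in TALL104, EL4 and IVA12, and ORC1 in Jurkat. RPA1 was the highest RPA subunit in every library, and RPA3 the lowest in all but IVA12. In Jurkat the intervals of RPA1 (53.8 to 56.0) and RPA2 (52.6 to 56.0) overlap, so the highest is not resolved there. The RPA levels spanned 2.85-fold in Jurkat against 12.7-fold in TALL104, and 2.96-fold in EL4 against 1.63-fold in IVA12. POLD2 was the highest and POLD3 the lowest of POLD1 to POLD3 in all 4 libraries. In TALL104 the intervals of POLD3 (4.05 to 4.71) and POLD1 (4.39 to 5.12) overlap, so the lowest is not resolved there.

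**Figure D5:**
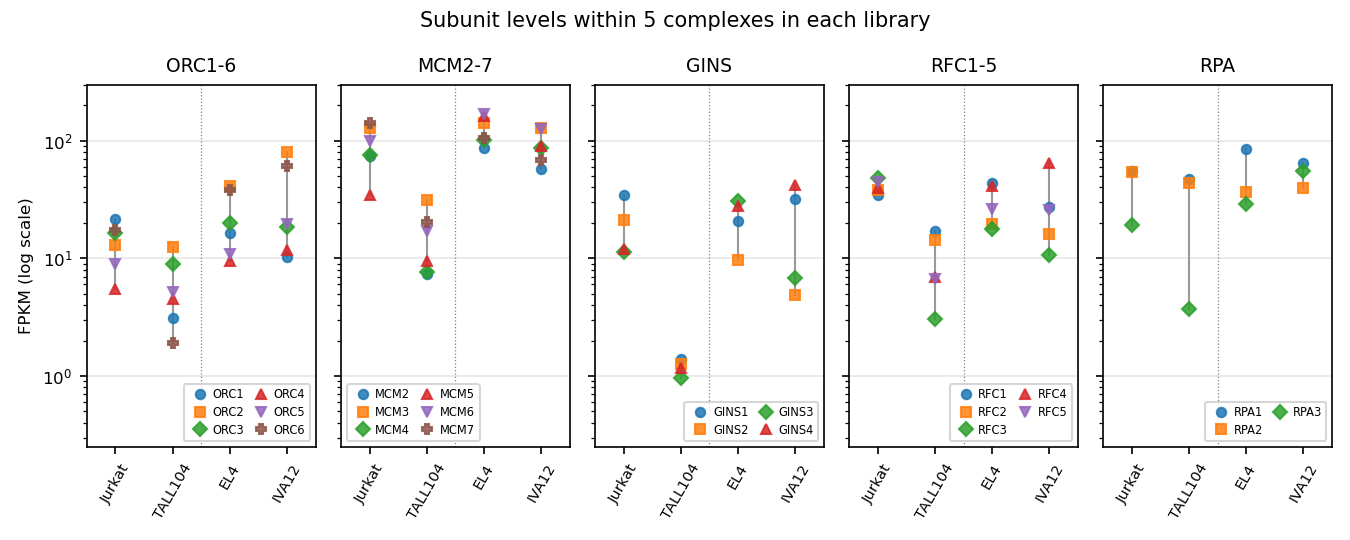
FPKM on a log axis of each subunit of 5 complexes in the 4 libraries, with mouse genes under the human symbols and the dotted line parting human from mouse libraries. Grey lines join the lowest and highest subunit. RFC subunits lie within 1.39-fold in Jurkat and 5.61-fold in TALL104, and GINS subunits lie within 1.45-fold in TALL104 and 8.62-fold in IVA12. In TALL104 the GINS subunits are all low, between 0.954 and 1.38 FPKM.

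The other genes of the pathway showed the same contrast between the pairs. The 50 further human replication genes found were E2F factors, cyclins, checkpoint and fork proteins, RNase H2, chromatin assembly, topoisomerases and others. Of these, 45 were past 1.5-fold higher in Jurkat and 1 in TALL104, with a median log2 ratio of 1.73. The shares were 90% and 2%, beside 34.2% and 28.4% of all expressed human genes. On log2 of FPKM + 1, the largest ratios were those of CCNA2, the S-phase cyclin A2, at 76.9 and 4.65 FPKM, and DSCC1, of an alternative clamp loader, at 29.0 and 1.599 FPKM. TOP2A, topoisomerase II alpha, had 187 and 17.4 FPKM, and TICRR, which helps CDC45 to load, had 10.9 and 0.470 FPKM. By fold alone TICRR was highest at 23.2 (17.8 to 30.9), with DSCC1 at 18.1 (15.1 to 22.0) and CCNA2 at 16.5 (14.9 to 18.4). CDC7, the kinase that starts origins with DBF4, had 32.6 and 4.51 FPKM, and DBF4 had 25.7 and 7.33 FPKM. The small subunits of the polymerases did not follow their partners alike. POLE3 had 89.5 and 29.1 FPKM and POLE4 3.68 and 3.41 FPKM, a fold of 1.08 (0.897 to 1.30). POLD4, the smallest subunit of polymerase delta, was the 1 gene higher in TALL104, at 2.62 FPKM in Jurkat and 13.9 FPKM in TALL104, 5.31-fold higher there.

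In the mouse pair 4 of 51 further replication genes were higher in EL4 and 10 in IVA12, with a median log2 ratio of -0.11. These shares, 7.84% and 19.6%, were both below the 23.8% and 26.5% of all expressed mouse genes. The largest ratios were all toward IVA12. Ccne2, a cyclin of the start of S phase, had 2.87 FPKM in EL4 against 22.3 in IVA12. Top1, topoisomerase I, had 17.9 and 77.4 FPKM, E2f1, the transcription factor, 11.7 and 47.6 FPKM, and Wdhd1, which ties polymerase alpha to the helicase, 12.8 and 28.0 FPKM. Pole4 had 40.9 and 20.2 FPKM, and Pold4, Pole3, Dbf4 and Cdc7 were within 1.5-fold.

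Lists of like kind are given beside the 41 genes. Genes of mitosis and spindle had a median log2 ratio of Jurkat over TALL104 of 3.26, with 20 of 20 past 1.5-fold higher in Jurkat. Genes of nucleotide supply had 1.83, with 18 of 18, beside 34.2% of all expressed human genes. In the mouse pair, 3 of 20 mitosis and spindle genes were higher in EL4 and 3 in IVA12, with a median of -0.13. Of 17 nucleotide supply genes 2 were higher in EL4 and 7 in IVA12, with a median of -0.33. The shares in EL4 and IVA12 were 15% and 15% for mitosis and spindle, and 11.8% and 41.2% for nucleotide supply. Among all expressed mouse genes they were 23.8% and 26.5%. TOP2A is in both the pathway and the mitosis list.

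Some listed genes share ground with another gene, and the strand setting of the counting is not given in the sources used here. By the annotation used here, 17 of the 41 human genes overlapped another gene of the table, 5 of them (FEN1, POLD1, POLD3, PRIM1 and PRIM2) on the same strand, and 13 of the 41 mouse genes did, with Cdt1 on the same strand. FEN1 overlaps FADS2, at 46.7 and 6.93 FPKM, and PRIM1 overlaps NACA, at 65.5 and 42.7 FPKM. On the opposite strand, GINS1 overlaps NINL, at 8.32 and 0.476 FPKM, and RFC4 overlaps EIF4A2, at 69.6 FPKM in Jurkat and 111 in TALL104. The values of these genes are uncertain to the extent that reads were shared. The mouse pseudogene Pcna-ps2 was at 3.17 FPKM in EL4 and 1.79 FPKM in IVA12.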

How the data were processed

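RNA of 4 cell lines (1 library each) was studied by bulk sequencing. Per the study's methods and processing notes, the authors aligned reads with STAR 2.5.1b to a combined reference of hg19 (Ensembl 82) and mm10 (Ensembl 84), counted them with featureCounts 1.6.3 and deposited FPKM. The gene lengths used are not given in the sources used here. Library totals and reads were recovered from the steps between FPKM values (relative tolerance 1e-12, lengths up to 300000 bases), and 100% of values above 0 came out whole. Reads of a gene can lack a common factor, which widens its interval. Intervals are exact Poisson for levels and exact Clopper-Pearson, conditional on the sum of reads, for folds. No test was made, since each line has 1 library. Ratios used a pseudocount of 1 FPKM, a 1.5-fold threshold and a background of genes with at least 1 FPKM in either line. Lines were compared within a species. The other-species rows of each library were kept apart, and 0 further columns were left unused.

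Symbols and positions came from GENCODE releases on hg19 and mm10, and promoters from RefSeq on GRCh38.p14, which was used for sequence alone. CTPS1 in mouse and UHRF1 in human were not matched. Named genes were the highest and lowest ratios of each role, the highest and lowest levels of each library, the 4 largest ratios of the further pathway genes in each pair and 5 partners of members. The members and lists were chosen with earlier results of these data known. The calculation was tested on simulated data. Python 3.11.15, NumPy 2.4.6, pandas 2.3.3, SciPy 1.17.1 and matplotlib 3.10.9 were used.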

Additional observations from a re-analysis of the deposited data

Results flagged for a closer look

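Reads on the copies of the 41 genes from the other species were present in each library, though no cells of that species should be in it. Jurkat had 57 reads on the mouse copies and TALL104 had 51. EL4 had 65 reads on the human copies and IVA12 had 169. Each was above the 3 reads that a count of 0 allows, and these reads reached 27, 26, 25 and 38 of the 41 genes. The highest single value was 0.269 FPKM, for PCNA in IVA12.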

How the results depend on the processing

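With a pseudocount of 0.1 or 0.01 FPKM the median log2 ratio of Jurkat over TALL104 was 2.44 and 2.46 in place of 2.24, as a smaller pseudocount draws low genes less toward 1. At 2-fold, 4 mouse genes were higher in EL4 and 1 in IVA12, in place of 11 and 10. The correlation of the human with the mouse ratios was 0.00 by Pearson's r and -0.0279 by Spearman's rho, both near 0. Of the single values, the correlation of Jurkat with EL4 was 0.60 by Spearman's rho. The share of promoters was 22.9% for the E2F-type words and 37.1% for CCAAT when only the strand of the gene was searched, beside 2.17% and 23.3% of all genes of the table searched in the same way. The other alternatives for the counts and medians (equal totals, the median ratio set to 1, no mitochondrially encoded genes, and minimum levels) left the counts within 36 to 37 in Jurkat, at 0 in TALL104, 11 to 12 in EL4 and 9 to 10 in IVA12. No paired analysis was possible because each line has 1 library. For the same reason leaving out a replicate was not possible, and differences between cultures of a line were not measured.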
